A study of Mus musculus with 4 samples.

Results

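C1q macrophages are described here as the sorted leukocytes that carried abundant C1q RNA and little RNA of genes typical of tissue-resident macrophages. A cell entered when it held at least 10 raw unique molecular identifiers (UMIs, each standing for 1 captured RNA molecule) of C1qa, C1qb and C1qc together and at least 1 UMI of Csf1r, the receptor for the macrophage growth factor CSF1. Fewer than 2 of the 5 genes Mrc1, Pf4, Ccl8, Retnla and Folr2 could be detected, and any UMI of Cd3e, Cd3d, Cd3g (T cell receptor subunits) or Cd79a (B cell receptor subunit) excluded the cell. The rule selected 2161 of 23011 cells that passed the quality limits (9.39%), and 74.0% of the 2919 cells that met the same rule without the limit on resident genes. The members were chosen by these measured levels, so the values of the rule's own genes are given as a description only.

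Leukocytes were taken from subcutaneous tumours grown from the KPC line, which derives from a Pdx1-Cre driven mouse model of pancreatic cancer, in male C57BL/6 mice. Mice of the first group were untreated. The second received the STING agonist, the cyclic dinucleotide ADU-S100, by a single injection into the tumour. The third received the LTbR agonist, the antibody 4H8, by repeated intraperitoneal injection. The fourth received the STING and LTbR agonist together. All groups carried the same tumour cells and the same host strain, and live CD45-positive cells were sorted. Tumours of a group were pooled before sorting, so each group was 1 library with no values per animal. No comparison below therefore has a replicate check, no p-value is given, and every interval (95%, exact) covers counting error only. The design asks how each agonist, and the pair, altered the immune cells of the tumour.

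C1q is the recognition subunit of the classical complement pathway, and in solid tumours macrophages are its main source. Macrophages of this kind arise largely from blood monocytes that enter the tumour, lose Ly6c2 and gain MHC class II, complement and lipid-handling genes such as Apoe and Trem2. STING senses cyclic dinucleotides in the cytosol and switches on type I interferon, whereas LTβR is a receptor of stromal and myeloid cells that signals through non-canonical NF-κB.

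The members carried macrophage genes but were not set apart by every marker in their name. Trem2, a lipid-sensing receptor, reached 180.0 CPM (UMIs per 1000000 UMIs of the cell set) in untreated members, against 67.9 CPM in Ly6c2 monocytes and 304 CPM in the C1q-high cells with 2 or more resident genes, called resident-like cells here. Apoe, which carries lipids, stood at 2931 CPM in untreated members, between 1028 CPM in monocytes and 7846 CPM in resident-like cells. Ms4a7, a macrophage membrane protein, followed the same order with 196, 82.8 and 474 CPM. In all 4 libraries these 3 genes were higher in the members than in the monocytes and lower than in the resident-like cells. Fcgr4, an activating receptor for IgG, was at 502 CPM in untreated members and 507 CPM in untreated resident-like cells, with overlapping intervals (488 to 516 and 482 to 532). So Trem2, Apoe and Ms4a7 marked the resident-like cells more strongly than the cells named after them. Cd163 and Lyve1, defining genes of resident macrophages, were at or below 0.280 CPM in the members of every library. Cd163 was also scarce in resident-like cells, at 0 CPM untreated, 0.559 with the STING agonist, 0.368 with the LTbR agonist and 4.96 with both. It therefore hardly separated the members from those cells outside the combination library.

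Few cells lay next to the C1q limit and many next to the limit on resident genes. A C1q sum of 10 or 11 UMIs was held by 25 untreated members, 8 with the STING agonist, 30 with the LTbR agonist and 13 with both, and a sum of 8 or 9 kept out 41, 15, 27 and 16 cells. The median member held 49.5, 66.0, 41.0 and 48.0 C1q UMIs in the same order, whereas the median T cell held 0. None of the 5 resident genes was detected in 572, 264, 328 and 199 members and exactly 1 in 338, 183, 183 and 94, and exactly 2 kept out 180, 104, 124 and 82 cells. Members were captured deeply, with medians of 10037.5, 11939.0, 11757.0 and 11871.0 UMIs, and contributed 3570637 to 9977593 UMIs a library. Mitochondrial UMIs had medians of 0.556%, 0.593%, 0.824% and 0.819%, higher in both libraries with the LTbR agonist. In all, 284 of 24555 barcode sequences occurred in more than 1 library. Of the member barcodes 44 were also found in another library, and 2 sequences were members in more than 1.

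C1q macrophages made up a smaller share of tumour leukocytes in both libraries with the LTbR agonist. They were 910 of 6783 cells in the untreated library (13.4%, 95% interval 12.6 to 14.3) and 447 of 3748 with the STING agonist (11.9%, 10.9 to 13). The LTbR agonist library held 511 of 7147 (7.15%, 6.56 to 7.77) and the combination 293 of 5333 (5.49%, 4.90 to 6.14). The untreated and STING agonist intervals overlapped, and the 2 libraries with the LTbR agonist lay below both of them and did not overlap each other. Relative to untreated the share was 0.889 with the STING agonist (0.765 to 1.03), 0.533 with the LTbR agonist (0.461 to 0.616) and 0.410 with both (0.344 to 0.487).

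The difference was smaller on narrower denominators. Cells with a Csf1r UMI and no T or B cell receptor gene were 43.5%, 38.6%, 37.6% and 30.3% of the libraries. Among them C1q macrophages took 30.8%, 30.9%, 19% and 18.1%, so the ratio to untreated was 0.617 with the LTbR agonist (0.540 to 0.705) and 0.588 with both (0.501 to 0.689). On this denominator the combination and the LTbR agonist alone had overlapping shares, at a ratio of 0.953 (0.792 to 1.14). Resident-like cells were 3.45%, 3.52%, 2.98% and 3.36% of the libraries, with ratios to untreated of 1.02 (0.755 to 1.37), 0.864 (0.664 to 1.12) and 0.973 (0.739 to 1.28). Ly6c2 monocytes were 14.8%, 12.7%, 13.5% and 11.6%, with ratios of 0.855 (0.741 to 0.986), 0.914 (0.813 to 1.03) and 0.785 (0.687 to 0.895). In both libraries with the LTbR agonist these ratios lay nearer to 1 than those of the members, and with the STING agonist that of the monocytes did not. C1q macrophages were 79.5%, 77.2%, 70.6% and 62.1% of all C1q-high macrophages in the 4 libraries. The plot of shares shows the 3 cell sets side by side.

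**Figure D1:**
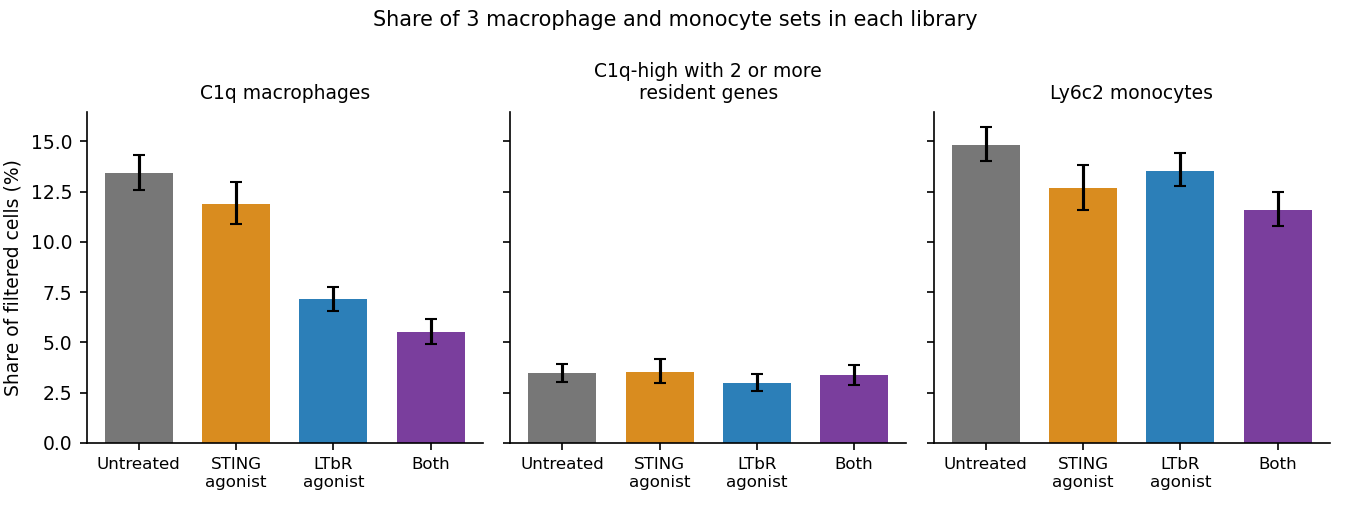
Share of filtered cells (percent) in each of the 4 libraries for C1q macrophages, resident-like cells and Ly6c2 monocytes, with exact 95% binomial intervals. C1q macrophages stand at 13.4% and 11.9% without the LTbR agonist and at 7.15% and 5.49% with it, while resident-like cells stay between 2.98% and 3.52%.

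Expression was compared between libraries on UMIs summed over the members, as log2 ratios of CPM with 10 CPM added to each side, which understates ratios of low genes. Of 7449 genes with a mean of at least 10 CPM, few passed 2-fold. With the STING agonist 3 genes were past 2-fold higher (0.0403%) and 1 lower (0.0134%). With the LTbR agonist 27 were higher (0.362%) and 8 lower (0.107%), and with both 38 were higher (0.510%) and 21 lower (0.282%). The median over all these genes was 0.01, -0.01 and 0.02, and 3869, 3477 and 4008 of the 7449 had a positive log2 ratio. Between the combination and the LTbR agonist alone 4238 were positive. Sign counts of the lists below are to be read beside these. The 4 genes past 2-fold with the STING agonist were Saa3, Egr1 and Socs1, higher, and Ccl24, a chemokine for eosinophils, lower. Saa3 passed the mean of 10 CPM only through the STING agonist library. Ccl24 stood at 141, 51.6, 275 and 200.2 CPM, and the 10 members richest in it held 63.2% to 83.8% of its UMIs. Between the combination and the STING agonist alone 23 genes were higher (0.309%) and 23 lower (0.309%). The comparisons with untreated share that library. Tmem173, which encodes STING, was at 81.8, 92.8, 69.0 and 92.7 CPM. Ltbr, the target of the antibody, was at 54.3, 56.7, 45.1 and 49.9 CPM. RNA of both targets was thus present in the summed counts of the members in every library. The part of RNA from other cells in these values was not tested.

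The genes that name these macrophages were lower with the LTbR agonist. Trem2 stood at 180.0 CPM untreated, 207 with the STING agonist, 101 with the LTbR agonist and 101 with both, a log2 ratio to untreated of -0.78 (-0.94 to -0.61) with the LTbR agonist. Apoe stood at 2931, 3895, 1389.8 and 1468 CPM (-1.07 with the LTbR agonist and -0.99 with both). Ms4a7 stood at 196, 148, 68.7 and 42.6 CPM (-1.39 and -1.97). Fcgr4 stood at 502, 540.3, 217 and 226 CPM (-1.18 and -1.12). For each of the 4 genes both libraries with the LTbR agonist lay below both libraries without it. Their median log2 ratio was 0.15 with the STING agonist, -1.12 with the LTbR agonist and -1.05 with both. As a description of the rule's genes, C1qa, C1qb and C1qc had log2 ratios of -0.42, -0.44 and -0.43 with the LTbR agonist. With both agonists their ratios were -0.05, -0.12 and -0.06. The rule's minimum of C1q UMIs kept cells with little C1q out of the members in every library. The size of these C1q ratios therefore cannot be compared with that of the 4 genes above.

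The same differences were present within classes of C1q content, which were broad and open at the top. In members with 10 to 19 C1q UMIs, Fcgr4 was at 364, 336, 162 and 179 CPM, and in members with 80 or more at 596, 649, 281 and 248 CPM. Ms4a7 was at 162, 89.4, 56.8 and 26.2 CPM in the lowest C1q class and at 229, 171, 83.5 and 69.8 CPM in the highest. In each of the 4 C1q classes Trem2, Apoe, Ms4a7, Fcgr4, Ms4a4a and Ifitm1 were lower in both LTbR agonist libraries than in the untreated library, as the plot by C1q class shows.

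**Figure D2:**
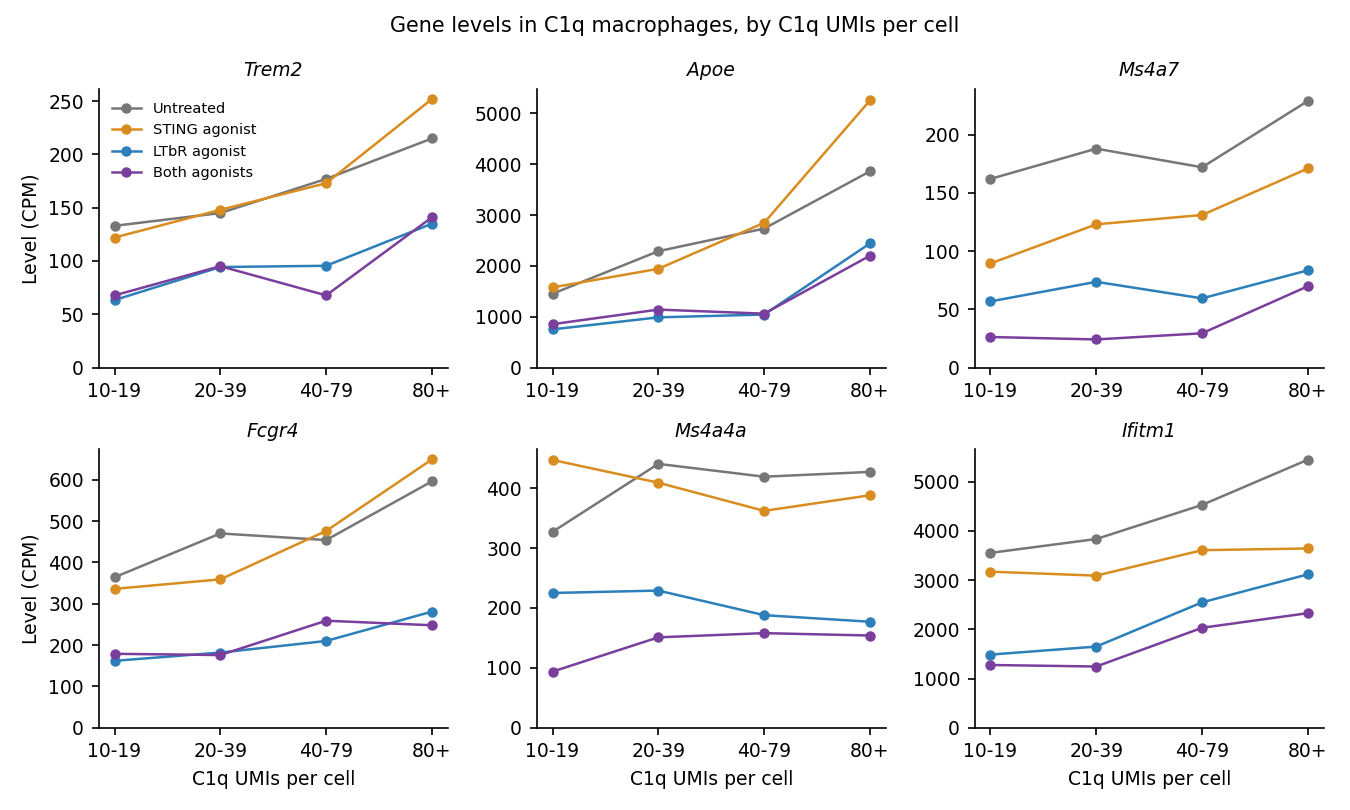
Level (CPM, linear scale) of 6 genes in C1q macrophages, split by the C1q UMIs of the cell, with 1 line for each of the 4 libraries and no error bars. Within every class the libraries with the LTbR agonist lie below the untreated library for all 6 genes, for example 281 and 248 CPM against 596 CPM for Fcgr4 at 80 or more C1q UMIs.

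Fewer members carried these RNAs when every cell was thinned to 3000 UMIs, which 894, 444, 503 and 284 members could supply. Fcgr4 was detected in 70.9%, 71.4%, 45.5% and 41.5% of members in the order above. The intervals of the first 2 libraries began at 67.8% and 66.9%, and those of the libraries with the LTbR agonist ended at 50% and 47.5%. Trem2 was detected in 38.3%, 41.2%, 24.9% and 21.1%, and without thinning in 70.7%, 76.3%, 52.6% and 50.2%. T cells, which should lack both genes, had a Trem2 UMI in at most 0.448% and a Fcgr4 UMI in at most 1.2% after thinning, at median depths of 4728.0 to 5617.0 UMIs before it. The member shares were therefore far above this background in every library.

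Receptors for antibody were lower as a family. Of 5 Fc receptor genes all had a negative log2 ratio with the LTbR agonist (median -0.33) and with both (median -0.49), and 1, Fcgr4, was past 2-fold lower in each. Fcgr1, the high-affinity IgG receptor, stood at 469, 452, 309.7 and 267 CPM. Fcgr2b, the inhibitory receptor, stood at 1447, 1477, 1153 and 1064 CPM, and Fcer1g, the signalling chain, at 4120.4, 3784, 3384 and 3021 CPM. The activating and the inhibitory receptors were thus lower together.

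The Ms4a genes, a cluster that encodes membrane proteins, were lower too. All 6 tested were lower in each of the 3 treated libraries, with medians of -0.21, -0.61 and -0.66. Ms4a7 and Ms4a4a passed 2-fold with the LTbR agonist and with both. Ms4a4a was at 416, 389, 199 and 147 CPM, and was found in 62.4%, 57.2%, 37.4% and 28.9% of thinned members. The 4 Ifitm genes, interferon-inducible membrane proteins that restrict viral entry, were also lower in every treated library. Ifitm1 was at 4631, 3524, 2344 and 1871 CPM, and Ifitm6 at 91.2, 45.6, 62.4 and 29.1 CPM, and the family median with both agonists was -1.07. Reads of close Ms4a and Ifitm paralogs may be divided between copies, so values of single members carry that limit.

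Of the 8 genes past 2-fold lower with the LTbR agonist, the others were Ccl5, Thbs1, Adgb and Ccr7. Ccl5, a chemokine for T cells, stood at 1743, 1488, 449 and 919.7 CPM (-1.93 with the LTbR agonist, -2.01 to -1.86). T cells carry Ccl5 RNA too, with a UMI in 54.9% to 67.3% of thinned T cells against 50.8%, 46.2%, 22.7% and 37.7% of members, and the part of free RNA in the member values was not tested. Thbs1, a matrix protein that activates TGF-β, stood at 779, 708, 247 and 318 CPM. Adgb, androglobin, was at 33.4, 29.7, 7.23 and 9.52 CPM, and Ccr7, a homing receptor of dendritic cells and T cells, at 15.2, 24.6, 2.20 and 42.0 CPM, with at least 95.4% of its UMIs in the 10 richest members of each library. Further genes were lower with both agonists. Ddit4, an inhibitor of mTORC1, was at 316, 222, 163 and 87.1 CPM, and Lgmn, a lysosomal protease of macrophages, at 920.2, 770.0, 549 and 384 CPM, both past 2-fold lower only with both agonists among the 3 comparisons with untreated. Slpi, a protease inhibitor, was at 141, 104, 75 and 46.2 CPM and Mmp13, a collagenase, at 101, 139, 92.6 and 35.6 CPM. The order of the libraries differed among these genes: Ddit4, Lgmn and Slpi were lowest with both agonists, and Ccl5 and Thbs1 were lowest with the LTbR agonist alone.

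A second set of genes was higher with the LTbR agonist. Mgl2, a lectin of alternatively activated macrophages and dendritic cells, stood at 41.9, 41.5, 178 and 313 CPM (1.86 and 2.64). Dcstamp, which takes part in fusion of macrophages, was at 72.0, 95.9, 231 and 344 CPM (1.56 and 2.11). Plet1, an epithelial and dendritic cell surface protein, was at 5.31, 8.80, 43.7 and 102 CPM, and Ccl17, a chemokine for T cells with CCR4, at 1.5, 3.87, 47.0 and 109 CPM. All 4 were highest with both agonists. Plet1 and Ccl17 were under 10 CPM in the untreated and STING agonist libraries. They thus passed the mean of 10 CPM only through the libraries where they were high. Mgl2 was spread over many cells, with a UMI in 4.59%, 4.95%, 20.9% and 27.5% of thinned members, whereas the 10 members richest in Ccl17 held 96% of its UMIs with the LTbR agonist and 81% with both.

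RNA of dendritic markers varied in the same libraries. The summed level of 9 such markers was 41.6, 37.1, 16 and 69.5 CPM, with at least 8 of them at or below 10 CPM in every library. Ccr7, a gene of T cells too, made up 15.2, 24.6, 2.20 and 42.0 CPM of the sum. The sum therefore cannot be read as RNA of dendritic cells alone. At least 1 UMI of the 9 markers was held by 7.03%, 7.61%, 9.78% and 17.4% of members. Without those members the log2 ratio with both agonists was 2.44 for Mgl2, 1.96 for Dcstamp, 2.41 for Plet1 and 1.81 for Ccl17. The Ccl17 value without them was thus lower than 3.37. For Ccl17, Plet1 and Mgl2 the value lay below the counting interval of the value over all members, and for Dcstamp within it.

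Some genes were highest with the LTbR agonist alone. Spp1, osteopontin, stood at 288, 395, 1457 and 331 CPM (2.30, 2.22 to 2.38), and was found in 19.1%, 28.8%, 47.3% and 22.2% of thinned members against 10.8%, 11.9%, 6.71% and 7.74% of T cells. Fgf13, an intracellular member of the fibroblast growth factor family, was at 13.7, 24.6, 71.2 and 38.9 CPM. Lpl, which releases fatty acids from lipoproteins, was at 1.70, 2.11, 27.8 and 8.40 CPM. Mmp12, the macrophage elastase, was at 264, 373, 689 and 374 CPM, and was found in 22.4%, 28.2%, 47.7% and 33.1% of thinned members. With both agonists Spp1 was close to its untreated level, and the combination differed from the LTbR agonist by -2.10 for Spp1 and -0.86 for Mmp12. Between these 2 libraries 12 genes were past 2-fold higher with the combination (0.161%) and 10 lower (0.134%).

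Of 18 lipid-associated genes tested, 15 were positive with the STING agonist, 9 with the LTbR agonist and 6 with both. Over all 7449 genes 3869, 3477 and 4008 were positive, so the LTbR agonist count lay near the share over all genes. Spp1 and Lpl were past 2-fold higher and Apoe lower with the LTbR agonist, and the list median was 0.12, 0.01 and -0.08. Lpl passed the mean of 10 CPM only through the LTbR agonist library, so its place in this count follows in part from the filter. Gpnmb, a lysosomal membrane protein used to mark lipid-associated macrophages, was low in all libraries at 6.61, 12, 6.61 and 7.84 CPM. Cd9, a tetraspanin of the same programme, was at 325, 385, 499.6 and 459 CPM. The efferocytosis receptor Axl, at 158, 148, 224 and 256 CPM, was also higher in both libraries with the LTbR agonist. Mertk, another such receptor, was higher in every treated library, at 82.8, 102, 112 and 103 CPM. It was found in 17.7%, 22.1%, 24.5% and 19.7% of thinned members, with overlapping intervals for untreated and both agonists. The efferocytosis list of 10 had medians of -0.01, 0.05 and -0.04.

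Interferon-γ response genes were higher with the STING agonist. All 18 genes tested of that list had a positive log2 ratio (median 0.43) and 1, Socs1, passed 2-fold. With the LTbR agonist 15 of the 18 were negative (median -0.48), and with both 11 were positive (median 0.06) and Socs1 and Serpina3g had the highest values. Compared with the LTbR agonist alone, the combination was higher for all 18 (median 0.57). Socs1, a feedback inhibitor of JAK signalling, was at 62.5, 141, 64.5 and 135 CPM. Gbp2, a guanylate-binding protein, was at 583, 831, 299.8 and 551 CPM, and Iigp1, an immunity-related GTPase, at 134, 232, 65.3 and 192 CPM. Cxcl9, a chemokine for CXCR3-bearing T cells, was at 383, 639, 348 and 626 CPM and was found in 26.5%, 34.7%, 24.3% and 45.8% of thinned members, against at most 1.36% of T cells. For Socs1 and Cxcl9 both libraries with the STING agonist lay above both without it, and for Gbp2 the combination lay near the untreated level. Reads of the guanylate-binding proteins and GTPases may be shared between near-identical copies.

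Genes typical of type I interferon did not show this order. Of 26 tested, 23 were negative with the STING agonist (median -0.16), 18 with the LTbR agonist (median -0.07) and 22 with both (median -0.20), and none passed 2-fold. Isg15, a ubiquitin-like modifier, was at 1118, 951, 1083 and 1018 CPM, and Irf7, a transcription factor of the response, at 488, 407, 372 and 358 CPM. Isg15 was found in 76.5%, 70.9%, 71.6% and 65.8% of thinned members. By the authors' methods the STING agonist was given once at the start of treatment, and the antibody repeatedly until some days before collection. The time since the last dose was thus longer for the STING agonist, and its part in these values was not tested. All values describe a single time of collection.

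**Figure D3:**
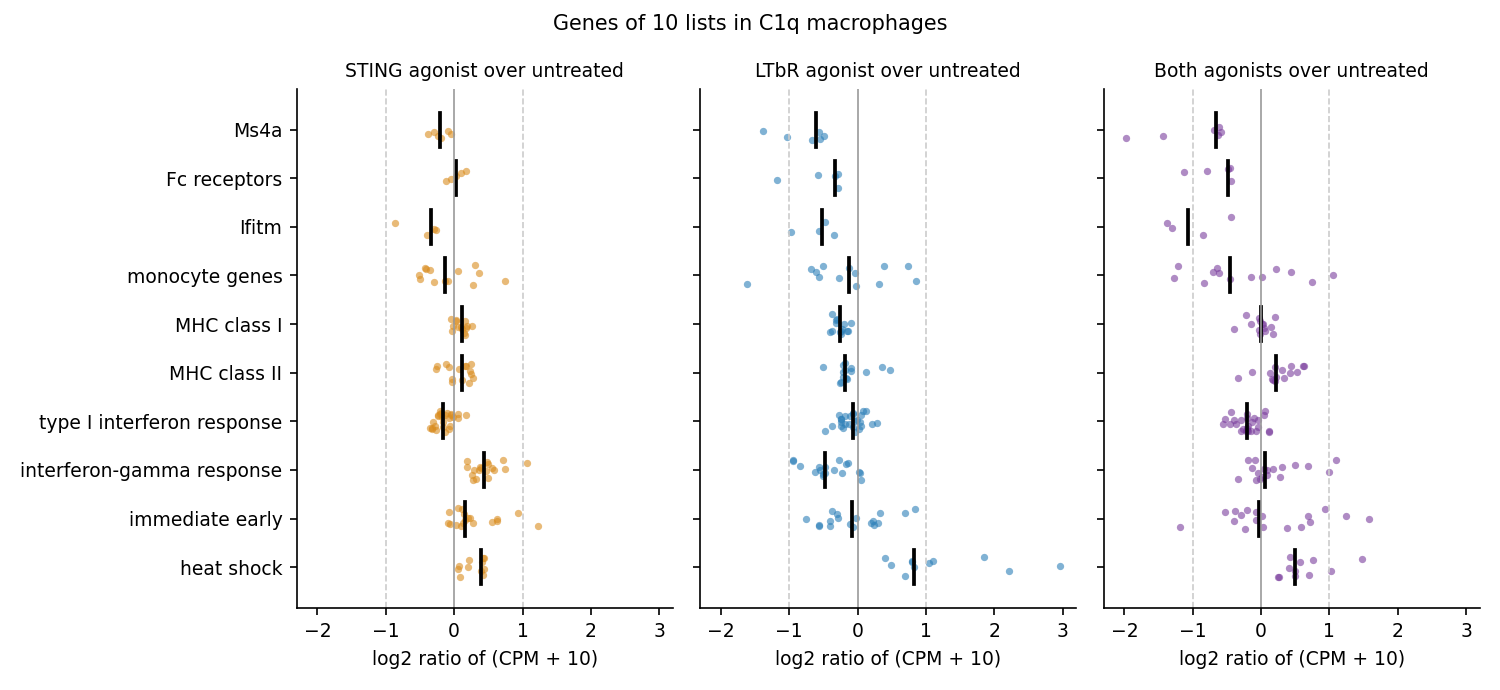
Log2 ratio to untreated (CPM with 10 added) of the genes of 10 lists in C1q macrophages, with 1 panel for each of the 3 treated libraries, 1 point for each gene, a black bar at the list median and dashed lines at 2-fold. Medians of the interferon-γ response genes stand at 0.43 with the STING agonist and -0.48 with the LTbR agonist, Ms4a genes at -0.61 and -0.66 in the libraries with the LTbR agonist, and the median over all genes lies between -0.01 and 0.02.

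Promoter windows are shown for genes of the interferon-γ and heat shock lists, all of whose tested genes were higher with the STING agonist. A window of Fcgr4, from the Fc receptors, is shown beside them, and none of the type I list is printed. Letters of known binding motifs are marked. The 250 bases before each gene's start were searched on both strands, in RefSeq sequences of build GRCm38.p6. The interferon-stimulated response element core, GAAA and GAAA again after 2 bases of any kind, was found in 2.98% of 32851 promoters of 27025 genes. At least 1 promoter held it for 9 of 14 matched genes of the interferon-γ list (64.3%). For the type I list this was so for 12 of 21 genes (57.1%). Of the 5 Fc receptor genes only 1, Fcgr4, held it, and a part of interferon in the Fcgr4 level was not tested. List shares count genes, which can have several promoters, and shares over all count promoters, so the 2 are not alike in unit. The gamma-activated letters TTCNNNGAA were in 7.02% of all promoters and in 6 of the 14 interferon-γ genes (42.9%). The heat shock element letters GAANNTTC were in 6.69% of all promoters and in 5 of 8 heat shock genes (62.5%). The windows below are printed in the direction of the gene, with the matched letters of either strand in capitals. They come from Socs1 (chr16:10785582-10785641, minus strand), Gbp2 (chr3:142620579-142620638, plus strand), Irgm2 (chr11:58214883-58214942, plus strand), Fcgr4 (chr1:171018828-171018887, plus strand), Hspa1b (chr17:34959309-34959368, minus strand) and Hspe1 (chr1:55088038-55088097, plus strand).
Socs1: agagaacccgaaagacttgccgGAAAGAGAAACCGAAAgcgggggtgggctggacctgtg
Gbp2: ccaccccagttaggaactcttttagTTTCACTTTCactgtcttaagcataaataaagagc
Irgm2: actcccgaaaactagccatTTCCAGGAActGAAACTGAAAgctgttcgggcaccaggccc
Fcgr4: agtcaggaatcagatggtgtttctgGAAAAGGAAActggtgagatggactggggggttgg
Hspa1b: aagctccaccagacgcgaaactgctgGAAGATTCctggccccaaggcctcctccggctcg
Hspe1: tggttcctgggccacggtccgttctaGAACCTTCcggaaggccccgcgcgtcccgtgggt
The first 4 carry the interferon-stimulated letters and Irgm2 also the gamma-activated ones. The last 2 carry the heat shock letters. A match is a run of letters and not a shown binding site.

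Antigen presentation genes differed by small amounts. Of 15 MHC class II genes 9 were positive with the STING agonist (median 0.12), 12 negative with the LTbR agonist (median -0.18) and 13 positive with both (median 0.22), and none passed 2-fold. Cd74, the invariant chain, stood at 16601, 20065, 14583 and 20487 CPM, and H2-Aa, a class II α chain, at 6249, 7434, 5497 and 7831 CPM. All 15 were higher with both agonists than with the LTbR agonist alone (median 0.39). Of 14 MHC class I genes 11 were positive with the STING agonist (median 0.11), all were negative with the LTbR agonist (median -0.25) and 7 were negative with both (median 0.00). For Cd74 and H2-Aa both libraries with the STING agonist lay above both without it.

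Complement genes outside the rule were mostly higher with the STING agonist. Of 9 tested, 8 were positive with it (median 0.40), and the median was -0.31 with the LTbR agonist and 0.06 with both. C3, the central complement protein, was at 268, 358, 215 and 344 CPM, and Cfb, of the alternative pathway, at 424, 489, 323 and 502 CPM. The anaphylatoxin receptors were lowest in both libraries with the LTbR agonist, with C3ar1 at 224, 246, 144 and 127 CPM and C5ar1 at 152, 171, 109 and 84.6 CPM, and so differed in direction from C3 and Cfb with both agonists.

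Of 13 monocyte genes 8, 9 and 8 were negative in the 3 treated libraries, against 3580, 3972 and 3441 of all 7449 genes. These counts lay not far above the shares over all genes. Ly6c2 was at 916, 681, 613 and 579 CPM, Plac8 at 2012, 1422, 1250.1 and 1233 CPM, and Ccr2, the receptor that brings monocytes into tissue, at 612, 422, 397 and 338 CPM. Lyz2, lysozyme, went the other way at 2415, 4027, 3027 and 4059 CPM, and Chil3, a chitinase-like protein, was past 2-fold higher with both agonists at 32.3, 34.0, 66.7 and 77.9 CPM. T cells carry Ly6c2 and Plac8 too. Ly6c2 was found in 50.3%, 44.8%, 38.0% and 37.7% of thinned members and in 47.2%, 46.1%, 41.3% and 38.8% of thinned T cells. Plac8 was found in 71.1% to 87.1% of thinned members and 29.0% to 40.6% of thinned T cells. The part of free RNA in the member values was not tested. The list medians were -0.14, -0.13 and -0.45. Macrophage identity genes had medians of -0.01, -0.11 and -0.15 over 15 genes, with Cd81, a tetraspanin, past 2-fold higher and Lgmn lower with both agonists. Adgre1, which encodes F4/80, was at 70.6, 84.3, 42.1 and 38.6 CPM.

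Levels of effector genes differed by less than 2-fold for most. Arg1, which degrades arginine, stood at 2129, 2264, 1936 and 1507 CPM, and Nos2, which makes nitric oxide from it, at 264, 379, 273 and 246 CPM. Of the 344 untreated members with a Cxcl9 UMI, 86.3% also had Arg1, against 89.2% of those without Cxcl9, and with both agonists the 2 values were 67.8% and 74.8%. Spp1 was found with Arg1 more often, in 32.7% of Arg1-bearing and 12% of other untreated members and in 68.2% and 15.6% with the LTbR agonist. Cells with more UMIs are more likely to show both genes of a pair, and these shares were not thinned. Il1b, an inflammatory cytokine, was in 98.4%, 96.8%, 94.2% and 94.0% of thinned members, at 5207, 5012, 4185 and 3799 CPM. Pdcd1lg2, the PD-1 ligand PD-L2, was at 46.8, 75.9, 71.2 and 131 CPM and past 2-fold higher with both agonists, while Cd274, which encodes PD-L1, was at 461, 565, 359.5 and 421 CPM.

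Heat shock genes were higher in every treated library. All 11 tested were positive in each, with medians of 0.40, 0.83 and 0.49, and 5 passed 2-fold with the LTbR agonist and 2 with both. Hspa1b stood at 17.9, 27.5, 207 and 67.5 CPM, and Hspa1a, its near-identical copy that can share reads with it, at 31.1, 37.3, 181 and 44.5 CPM. Immediate early genes moved apart, with Egr1 at 87.5, 217, 101 and 176 CPM, Klf2 at 24.0, 55.3, 50.6 and 91.3 CPM and Ier3 at 723, 693, 486 and 312 CPM, in a list of 18 with medians of 0.15, -0.09 and -0.03. Both lists respond to tissue handling as well as to signals in the animal. The median mitochondrial share was higher in both libraries with the LTbR agonist, as given above, and its part in these values was not tested.

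The direction of many of these differences was shared by resident-like cells and monocytes of the same libraries. Fcgr4 in resident-like cells was at 507, 598, 299 and 291 CPM and in monocytes at 258, 249, 127 and 127 CPM, a pattern like that of the members. Hspa1b was at 20.1, 33.5, 172 and 58.0 CPM in resident-like cells and Spp1 at 692, 761, 1198 and 700.5 CPM, with the LTbR agonist library highest for both. Apoe had log2 ratios of -1.07 in members, -0.32 in resident-like cells and -1.19 in monocytes with the LTbR agonist, and of -0.99, 0.11 and -1.36 with both, where the resident-like cells differed in direction. Mgl2 in monocytes stayed between 4.34 and 16.6 CPM, and reached 255 CPM in resident-like cells with the LTbR agonist. Dcstamp with both agonists was at 344 CPM in members, 98.7 CPM in resident-like cells and 57.2 CPM in monocytes. Lower Fcgr4 was thus found in all 3 cell sets, and the highest Dcstamp levels were those of the members. The interferon-γ list had medians of 0.21, -0.12 and -0.21 in resident-like cells and 0.43, -0.36 and 0.27 in monocytes, against 0.43, -0.48 and 0.06 in the members. No difference between cell sets was tested.

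**Figure D4:**
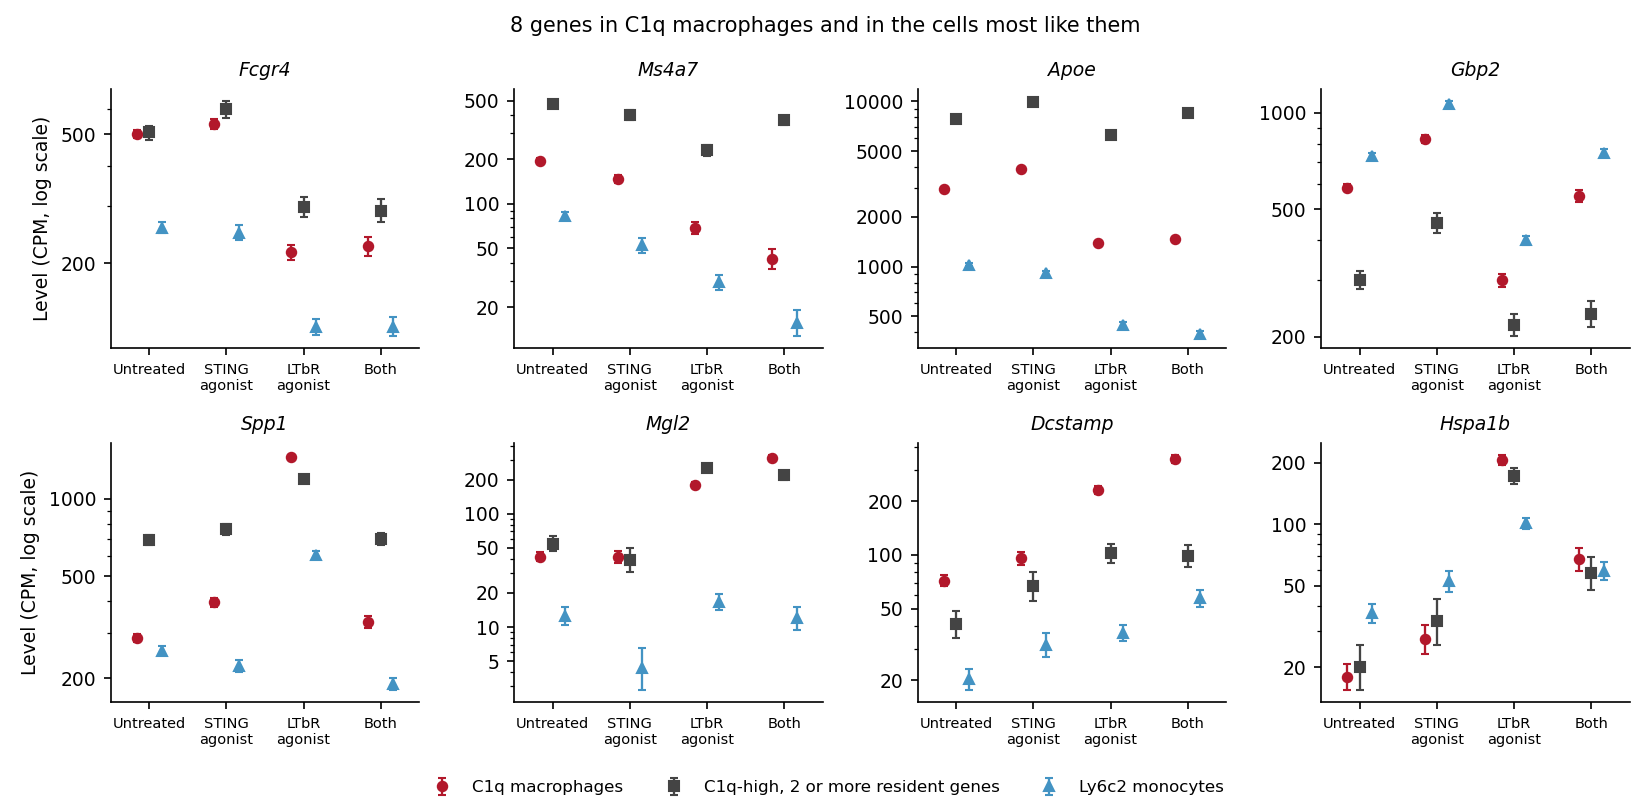
Level (CPM, log scale) of 8 genes in C1q macrophages, resident-like cells (C1q-high with 2 or more resident genes) and Ly6c2 monocytes of each library, with exact 95% Poisson intervals. Fcgr4 is lower with the LTbR agonist in all 3 cell sets, and Dcstamp reaches 344 CPM in the C1q macrophages with both agonists against 98.7 and 57.2 CPM in the other cells.

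Within each library the members differed from their neighbours in named genes. Against resident-like cells, 16 of 7564 genes were past 2-fold lower in all 4 libraries (0.212%) and none was higher in all 4. Vcam1, an adhesion molecule, was at 1.5, 1.76, 5.19 and 3.92 CPM in members and 20.1, 24.6, 112 and 155 CPM in resident-like cells. Selenop, a selenium carrier, was at 98.8, 126, 48.3 and 68.1 CPM against 283, 324, 286 and 588 CPM, and Cx3cr1, the fractalkine receptor, at 30.6, 16.5, 46.1 and 49.9 CPM against 141, 70.4, 162 and 242 CPM. Against Ly6c2 monocytes, 30 of 7334 genes were higher in all 4 libraries (0.409%) and 39 lower (0.532%). Mmp12 was at 264 CPM in untreated members and 81.0 CPM in untreated monocytes, H2-Eb1, a class II β chain, at 4793 and 1873 CPM, and Cd72, a lectin-like receptor, at 138 and 34.1 CPM. S100a8, a calcium-binding protein of neutrophils and monocytes, was at 11.4 and 98.6 CPM, and Hp, haptoglobin, at 66.1 and 261 CPM. All 3 cell sets were separated by genes of the same cells, so these are descriptions without a test.

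RNA of other cells was measured in the members, with T and B cell RNA also limited by the rule. Summed CPM of the T cell markers was 20.3, 9.68, 17.5 and 27.2, of the B cell markers 12.6, 11.1, 15.3 and 30.8, and of the NK cell markers 26.6, 8.98, 69.2 and 39.8. B cell markers were detected in 7.80%, 8.05%, 14.9% and 25.9% of members. Tumour cell markers summed to 4.41, 3.70, 6.45 and 10.9 CPM. The 7 neutrophil markers summed to 86.6, 64.8, 51.1 and 65.0 CPM, with Ly6g at 0 throughout, and were detected in 44.2%, 42.1%, 29.2% and 28.0% of members. The 8 stromal markers summed to 91.6, 93.6, 63.7 and 58.5 CPM and were detected in 48.6%, 50.6%, 41.3% and 33.4%. In every library 7 of the 8 were at or below 10 CPM, so these values may rest largely on 1 gene. The highest lymphocyte sums thus stood in a library with the LTbR agonist, and their part in the results was not tested beyond leaving out members that held T, NK or dendritic markers.

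**Figure D5:**
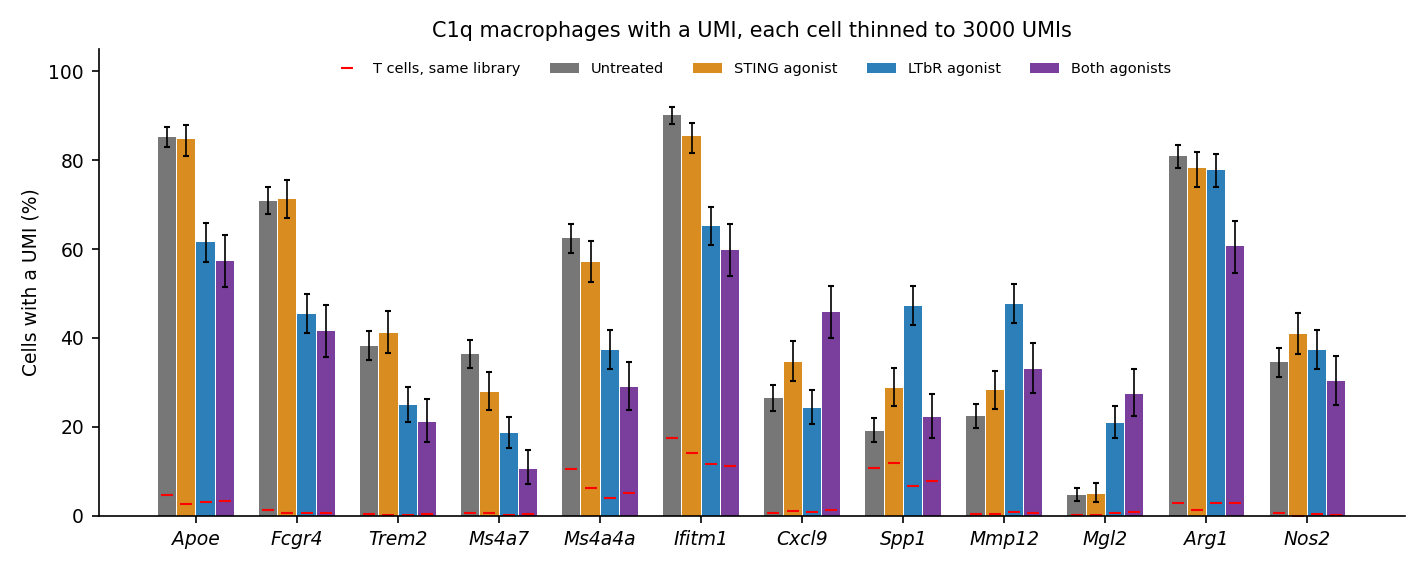
Share of C1q macrophages with at least 1 UMI of each gene (percent), after thinning every cell to 3000 UMIs, with exact 95% binomial intervals for the 4 libraries and red marks at the share in T cells of the same library. Fcgr4 is at 70.9% in the untreated library and 45.5% with the LTbR agonist, and Mgl2 stands at 4.59% against 20.9% and 27.5%.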

How the data were processed

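The authors made 10x Genomics 5′ libraries from sorted CD45-positive cells of pooled tumours. The submitters' processing notes name Cell Ranger 7.1.0 and mouse build mm10. The deposited matrix holds raw UMI counts for 32285 genes. Each library was identified by the suffix of its barcodes as the labels assign it. Libraries held 32529174 to 60770280 UMIs.

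Cells with 300 to 5000 genes and at most 6% mitochondrial UMIs were kept. Members and gene lists were chosen with earlier results of these data known. Counts were summed over members, and log2 ratios of CPM used a pseudocount of 10 CPM, genes with a mean of at least 10 CPM and a 2-fold limit, with exact 95% Poisson or Clopper-Pearson intervals, for counting error only. Resident-like cells met the rule with at least 2 resident genes, and Ly6c2 monocytes had at least 1 Csf1r and 3 Ly6c2 UMIs and a C1q sum under 10. T cells had at least 2 Cd3 UMIs. Genes named were drawn from, and do not exhaust, each list's 3 highest and 3 lowest values, the 12 highest and lowest over all genes, the 10 highest and lowest against each like cell set, label and rule genes, Tmem173 and Ltbr, and list genes needed to say what a list holds. Doublets were kept in the main values, and a Scrublet score of at least 0.2 (expected rate 0.05) removed them in an alternative. The Scrublet score marked 227, 76, 238 and 129 cells. Alternatives covered rule limits, denominators, pseudocount, minimum CPM, scaling, thinning and doublets. Leaving out members with dendritic or T and NK markers was chosen after seeing the data. Ratios were tested on simulated counts with planted fold changes and counting error only. Such counts hold no spread between pools of tumours. Python 3.11.15, NumPy 2.4.6, SciPy 1.17.1, pandas 2.3.3, scanpy 1.11.5 and matplotlib 3.10.9 were used.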

Additional observations from a re-analysis of the deposited data

How the results depend on the processing

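No paired analysis was possible because each group had 1 library. No group had a replicate, so leaving one out was not possible either. The share of C1q macrophages relative to untreated moved with the denominator: among Csf1r cells it was 0.617 with the LTbR agonist and 0.588 with both, and among C1q-high macrophages 0.887 and 0.780. Counts of genes past 2-fold depended on the pseudocount. With 1 CPM they were 6 higher and 9 lower with the STING agonist, 53 and 23 with the LTbR agonist, and 80 and 56 with both, and with 50 CPM they were 1 and 0, 7 and 5, and 8 and 8. With the STING agonist 5 were higher with no minimum CPM, 5 higher and 2 lower with thinned members, and 2 lower without members holding T or NK markers. Lower counts were 21 with the LTbR agonist in members with no resident gene and 36 with both in thinned members. With both agonists the MHC class II median was 0.19 with median-of-ratios scaling and 0.17 in members with no resident gene, and the Fc receptor median there was -0.40. The share with an Apoe UMI relative to untreated was 0.836 with the LTbR agonist and 0.795 with both unthinned, and 0.601 with the LTbR agonist at 1500 UMIs. The share with a Fcgr4 UMI unthinned was 0.815 and 0.781. Gzma, an NK marker counted among the genes past 2-fold higher with the LTbR agonist, reversed from 1.45 to -0.38 after Scrublet removal. That removal took out 9 members of the LTbR agonist library. Ccr7 with both agonists reversed from 1.04 to -0.18 without members holding T or NK markers. The cause was not tested. Of genes that the naming rule gives, not all printed here, and that passed 2-fold, 0 of 4, 11 of 28 and 14 of 39 stayed past it under every alternative run, and 4, 26 and 38 kept their sign. Ratios of genes under 10 CPM are limited by depth.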

Other observations

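Some cells met the C1q and Csf1r limits and were kept out by other limits. A Cd3 UMI kept out 117 cells in the untreated library, 37 with the STING agonist, 66 with the LTbR agonist and 36 with both, and a Cd79a UMI kept out 1, 0, 4 and 10 cells. More than 5000 genes kept out 30, 21, 28 and 13. Among T cells, 5, 0, 1 and 4 held at least 10 C1q UMIs.

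Saa3, an acute phase protein, was at 5.61, 67.2, 9.12 and 2.24 CPM in the C1q macrophages, and the 10 members richest in it held 98.2% of its UMIs in the STING agonist library. Retnla, one of the rule's resident genes, was at 0.401, 0.176, 1.26 and 35.3 CPM.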
